A study of Mus musculus with 6 samples.

Results

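Genes of the unfolded protein response and of protein folding in the endoplasmic reticulum (ER) were examined in duodenal epithelium with and without Esrra, the gene for the estrogen-related receptor α, a nuclear receptor that activates mitochondrial metabolism genes. They were chosen by name as ER chaperones, disulfide isomerases and oxidases, ER-associated degradation (ERAD) factors, stress sensors and translocation factors. All 38 were found among the 22611 gene rows of the expression table. Of them, 37 were among the 10596 genes with a mean above 1 FPKM, the level above which genes were tested. FPKM is fragments scaled to transcript length in kilobases and to library size. The libraries came from 3 WT mice and 3 Esrra-/- mice (ESRRAKO in the labels), 1 library per mouse. The Esrra-/- allele is a germline deletion present in every tissue. According to the study's methods, the RNA-seq mice of both genotypes were littermates kept on a high-fat diet for some weeks, so no library represents a chow-fed animal, and males and females were used. Their ages were not given in the sources used here. Epithelium was released from the first part of the small intestine with EDTA and mechanical force. The study's methods allow whole collection or separate crypts and villi, and do not state which was used for RNA-seq.

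The ER is where secreted and membrane proteins enter the secretory pathway, are folded, receive disulfide bonds and glycans, and are inspected. When unfolded proteins accumulate in it, 3 kinds of sensor in its membrane respond. IRE1 (Ern1, and Ern2 in mucosal epithelium) splices Xbp1 mRNA, ATF6 (Atf6, Atf6b) is cut to release a transcription factor, and PERK (Eif2ak3) slows translation by phosphorylating eIF2α. Transcription then increases for chaperones such as BiP (Hspa5), for disulfide isomerases, and for the ERAD machinery that returns misfolded proteins to the cytosol for destruction. In the intestine, mucus-secreting goblet cells and antimicrobial-secreting Paneth cells carry a heavy secretory load, and absorptive enterocytes make brush-border enzymes and lipoproteins through the same route. Splicing of Xbp1, cleavage of ATF6 and phosphorylation of PERK or eIF2α are not visible in gene-level expression values.

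Promoters of these genes were searched for known response elements. The ER stress response element (ERSE), CCAAT followed after 9 bases of any kind by CCACG, is bound by ATF6 and XBP1 together with the CCAAT-binding factor NF-Y, and was first described in promoters of ER chaperone genes, so its presence in them is background. RefSeq promoters of mouse build GRCm38.p6, each holding 250 bases before and 50 after the annotated start, were matched to 33 of the 38 genes. A search on both strands found the ERSE in 10 of the 33 (30.3%), against 0.137% of the 27025 genes with a promoter in the same table, and 0 of 87 other ER genes with a promoter. These windows around each match, read on the gene's own strand, show the conserved ends of the element and the 9 variable bases between them. Capitals mark its 2 fixed parts, CCAAT and CCACG, or their reverse complements ATTGG and CGTGG where the match lies on the opposite strand.
Hspa5, chr2:34772013-34772055, plus strand: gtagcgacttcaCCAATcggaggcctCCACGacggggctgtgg
Calr, chr8:84847063-84847105, minus strand: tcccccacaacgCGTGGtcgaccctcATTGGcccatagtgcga
Canx, chr11:50325788-50325830, minus strand: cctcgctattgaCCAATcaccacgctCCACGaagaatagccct
Hsp90b1, chr10:86705521-86705563, minus strand: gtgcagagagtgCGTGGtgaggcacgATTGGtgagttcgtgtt
Hsp90b1, chr10:86705626-86705668, minus strand: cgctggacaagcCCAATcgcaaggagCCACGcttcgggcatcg
Pdia6, chr12:17266479-17266521, plus strand: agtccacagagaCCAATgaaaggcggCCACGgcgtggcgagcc
Ero1lb, chr13:12565670-12565712, plus strand: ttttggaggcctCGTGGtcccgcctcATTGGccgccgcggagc
Dnajc3, chr14:118937815-118937857, plus strand: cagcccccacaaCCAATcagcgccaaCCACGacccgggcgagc
Creld2, chr15:88819508-88819550, plus strand: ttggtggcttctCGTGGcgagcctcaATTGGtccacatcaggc
Derl3, chr10:75893230-75893272, plus strand: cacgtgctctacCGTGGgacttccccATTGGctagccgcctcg
Syvn1, chr19:6046520-6046562, plus strand: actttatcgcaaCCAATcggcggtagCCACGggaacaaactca

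The Hspa5 element ended 47 bases before the start and the Syvn1 element 26 bases before it. Hsp90b1 held 2 matches, 1 in each orientation. The shorter ERSE-II, ATTGG followed after 1 base by CCACG, was found in 2 of the 33 promoters, those of Herpud1 and Dnajb11, against 0.0444% of all genes. TGACGTGG, the core of the UPR element bound by XBP1 and ATF6, was found in 0 of 33, in 6 of 87 other ER genes (6.90%) and in 0.714% of all genes. For the receptor deleted in these mice, the extended response element TCAAGGTCA was found in 0 of 33, against 0.466% of all genes, and the half-site AAGGTCA that it contains in 0 of 33, against 5.38%. A match is only a run of letters, and its absence covers only these 300 bases.

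The 250 bases before the start are printed next for 5 genes on which the results turn, selected after their values were seen. They are Hspa5, the standard reporter of ER stress, Herpud1, the tested member with the widest spread between mice on the log2 scale, and Eif2ak3, Syvn1 and Edem1, the members with the smallest p-values. Capitals again mark the fixed bases of an ERSE (Hspa5, Syvn1) or an ERSE-II (Herpud1), and the stretches of Eif2ak3 and Edem1 held neither.
Hspa5, chr2:34771840-34772089, plus strand: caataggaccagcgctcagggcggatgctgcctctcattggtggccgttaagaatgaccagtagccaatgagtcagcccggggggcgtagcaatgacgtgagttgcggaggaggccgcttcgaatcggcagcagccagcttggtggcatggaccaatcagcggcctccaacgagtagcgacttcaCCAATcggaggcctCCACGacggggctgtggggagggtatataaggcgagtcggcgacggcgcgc
Syvn1, chr19:6046326-6046575, plus strand: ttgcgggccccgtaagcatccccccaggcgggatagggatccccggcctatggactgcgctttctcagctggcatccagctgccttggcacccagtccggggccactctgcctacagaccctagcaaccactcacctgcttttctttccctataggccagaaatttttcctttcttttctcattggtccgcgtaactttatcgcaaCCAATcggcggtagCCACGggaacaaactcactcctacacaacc
Herpud1, chr8:94386179-94386428, plus strand: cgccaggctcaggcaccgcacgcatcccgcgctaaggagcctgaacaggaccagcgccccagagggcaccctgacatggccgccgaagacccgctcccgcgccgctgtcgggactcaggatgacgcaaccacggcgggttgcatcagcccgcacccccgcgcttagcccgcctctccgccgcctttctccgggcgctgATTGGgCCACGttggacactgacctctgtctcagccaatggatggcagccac
Eif2ak3, chr6:70844265-70844514, plus strand: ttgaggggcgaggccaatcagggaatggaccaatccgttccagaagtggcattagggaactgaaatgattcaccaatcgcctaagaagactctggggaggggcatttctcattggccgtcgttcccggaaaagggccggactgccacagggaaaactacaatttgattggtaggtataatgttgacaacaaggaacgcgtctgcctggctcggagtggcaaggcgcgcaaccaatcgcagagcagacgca
Edem1, chr6:108828391-108828640, plus strand: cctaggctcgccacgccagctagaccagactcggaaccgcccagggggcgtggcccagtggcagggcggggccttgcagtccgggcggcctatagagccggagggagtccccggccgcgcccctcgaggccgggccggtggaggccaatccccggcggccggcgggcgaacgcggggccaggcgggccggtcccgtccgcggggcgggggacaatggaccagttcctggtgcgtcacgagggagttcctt

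Counting CCAAT on both strands, the Eif2ak3 stretch held 6 copies, the Hspa5 stretch 4, those of Syvn1 and Herpud1 2 each, and that of Edem1 1.

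Deletion of Esrra was visible in every mutant library. Esrra stood at 49.4, 73.5 and 104 FPKM in WT replicates 1, 2 and 3 and at 10.4, 9.42 and 8.72 FPKM in the Esrra-/- mice. The mutant mean was 12.6% of that in WT. On the log2(FPKM + 0.1) scale, used for every fold change here as Esrra-/- over WT, the difference was -2.92 (95% interval -3.52 to -2.32). Its adjusted p, from limma with Benjamini-Hochberg correction across the 10596 genes, was 0.0215. Exons of Esrra overlap those of the antisense gene Trmt112 and the library kit does not mark strand, so some reads could belong to either gene. Epithelial markers were high in all 6 libraries (Epcam, 565 to 776 FPKM), whereas pancreatic acinar genes, the other ER-rich cells nearby, were at or near 0 except for Cela1. WT replicate 3 and Esrra-/- replicate 3 nearly lacked the 4 Y-linked transcripts examined (0.0487 and 0.222 FPKM summed, against 27.3 to 46.7 in the others), so each genotype held 1 such mouse. The FPKM table carries no read counts. Steps between low values placed the worth of a single read at 0.973 to 1.21 times that in WT replicate 1. It was largest in both replicates 3. This worth depends on how the FPKM were scaled, so it does not settle the depth of a library.

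None of these genes was called different between WT and Esrra-/- mice. A call took its limits from the study, p under 0.05 before adjustment together with a change of more than 0.58 on the log2 scale, but its p from limma on FPKM, whereas the study used DESeq2. In this way 0 of the 37 genes tested were called lower, where 3.28% of all genes tested were, and 0 were called higher, where 1.35% were. With no limit on fold change, limma gave an unadjusted p under 0.05 to 0 genes in the lower direction (6.49% of all genes) and to 3 in the higher direction (4.30% of all genes), namely Eif2ak3, Syvn1 and Edem1. After adjustment over all genes, 0 members had a p under 0.05, while 4 genes of the whole table did (0.0378%), and the smallest adjusted p of a member was 0.342. Estimates of the log2 fold change ran from -0.24 (Sec61b) to 0.47 (Syvn1), with a median of 0.13 beside 0.03 over all genes.

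The precision behind these values differed from gene to gene. For 19 of the 37 genes (51.4%, against 39.8% of all genes) the whole 95% interval of the log2 fold change lay within 0.58 on either side of 0, so that a change of the size the study called was outside it. Hspa5, Hsp90b1, Canx, Xbp1 and all 6 disulfide genes were among the 19. For the other 18 the interval reached past that size, the widest being that of Herpud1 (-0.92 to 1.30). A p above the threshold in those genes does not show that the genotypes were alike.

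Most estimates lay on the higher side. The log2 fold change was above 0 for 28 of 37 genes (75.7%), compared with 54.3% of all genes tested. All 3 Esrra-/- values exceeded all 3 WT values for 6 genes (16.2%, against 8.45% of all genes), which were Eif2ak3, Atf6, Xbp1, Syvn1, Edem1 and Edem2. In 0 members did all 3 Esrra-/- values lie below WT (9.14% of all genes). By role they were 3 of 7 sensors and effectors and 3 of 9 ERAD genes, and whether the roles differ in this was not tested. For Atf6 and Edem2 the gap between the genotypes was under 0.1 FPKM.

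**Figure D1:**
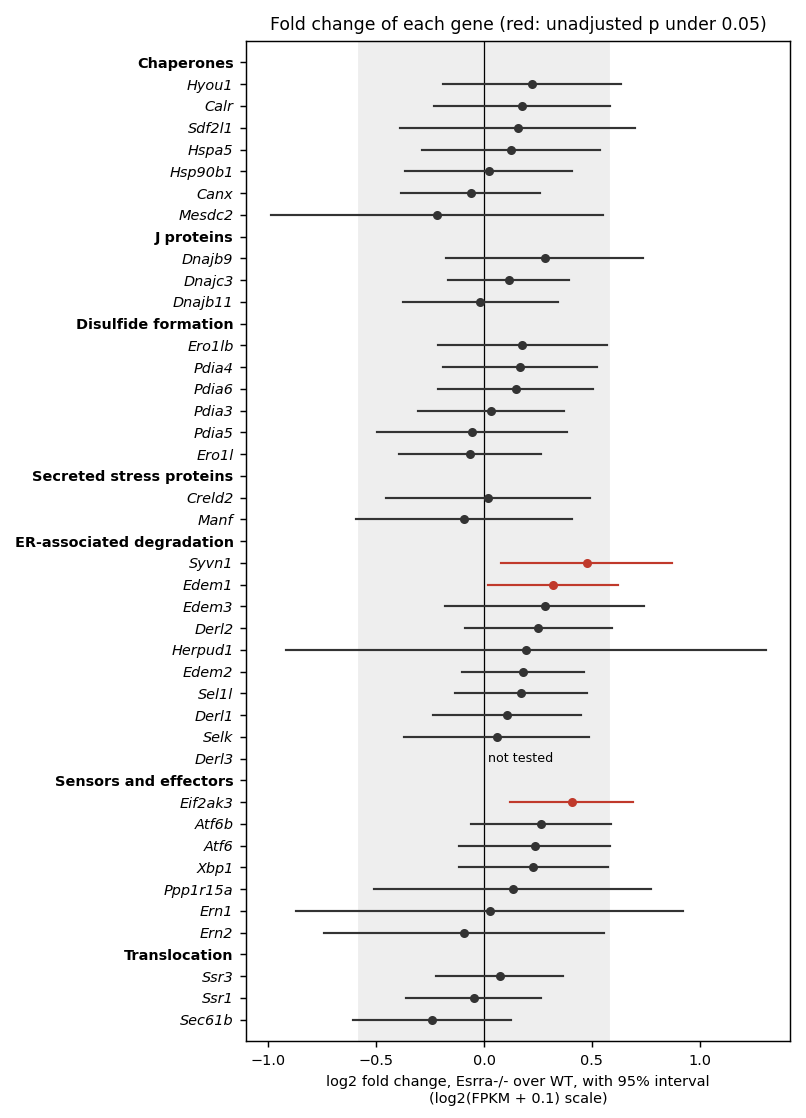
Log2 fold change, Esrra-/- over WT, of each gene (points) with its 95% interval from limma (lines), grouped by role. The shaded band spans 0.58 on either side of 0, and red marks the 3 genes with an unadjusted p under 0.05 (Syvn1, Edem1 and Eif2ak3), whose points all lie inside the band.

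Among the sensors, Eif2ak3, which encodes PERK, had the smallest p of the whole group. It was measured at 7.39, 7.36 and 6.85 FPKM in WT replicates 1 to 3 and at 10.7, 9.30 and 8.84 FPKM in Esrra-/- replicates 1 to 3. The genotypes did not overlap, and Esrra-/- replicate 1 was highest. This gave a log2 fold change of 0.41 (SE 0.12, 95% interval 0.12 to 0.69), with an adjusted p of 0.342 by limma. The mean in the mutants was 133% of that in WT. The unadjusted p stayed below 0.05 with each mouse left out in turn, except without Esrra-/- replicate 1, where the log2 fold change was 0.33.

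Xbp1 mRNA, which encodes the transcription factor of the IRE1 branch, was the most abundant of the sensor and effector transcripts. Its levels were 128, 115 and 122 FPKM in WT and 136, 131 and 162 FPKM in Esrra-/- mice. All mutants lay above all WT mice, although the lowest mutant and the highest WT mouse were only a few FPKM apart. Its log2 fold change was 0.23 (95% interval -0.12 to 0.57), with an adjusted p of 0.605 by limma. Spliced and unspliced Xbp1 were not separated.

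Atf6, the precursor of the cleaved ATF6 factor, measured 6.75, 7.31 and 5.25 FPKM in WT and 7.32, 7.63 and 7.61 FPKM in Esrra-/- mice. WT replicate 2 and Esrra-/- replicate 1 almost touched. Between genotypes the log2 fold change was 0.23 (adjusted p of 0.602 by limma). Its relative Atf6b, at 11.1 to 14.8 FPKM in WT and 14.6 to 16.2 FPKM in mutants, overlapped and had a log2 fold change of 0.26 (adjusted p of 0.536 by limma).

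For the IRE1 kinases, both replicates 3 lay below the other 4 mice. Ern1 measured 6.51, 6.45 and 3.01 FPKM in WT and 5.61, 7.33 and 3.25 FPKM in Esrra-/- mice, with a log2 fold change of 0.03 whose 95% interval ran from -0.87 to 0.92. Ern2, the IRE1 form of mucus-secreting epithelium, measured 4.04, 4.28 and 2.81 FPKM in WT and 4.09, 4.23 and 2.30 FPKM in mutants. These were the 2 members (5.41%) in which both replicates 3, the libraries without Y-linked transcripts, lay below the other 4, as they did for 13.2% of all genes. Ppp1r15a, the GADD34 subunit that restores translation by dephosphorylating eIF2α, was the lowest of the tested members, between 1.24 and 2.27 FPKM, with overlapping genotypes. Over the 7 sensors and effectors the median log2 fold change was 0.23, and 6 were above 0.

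**Figure D2:**
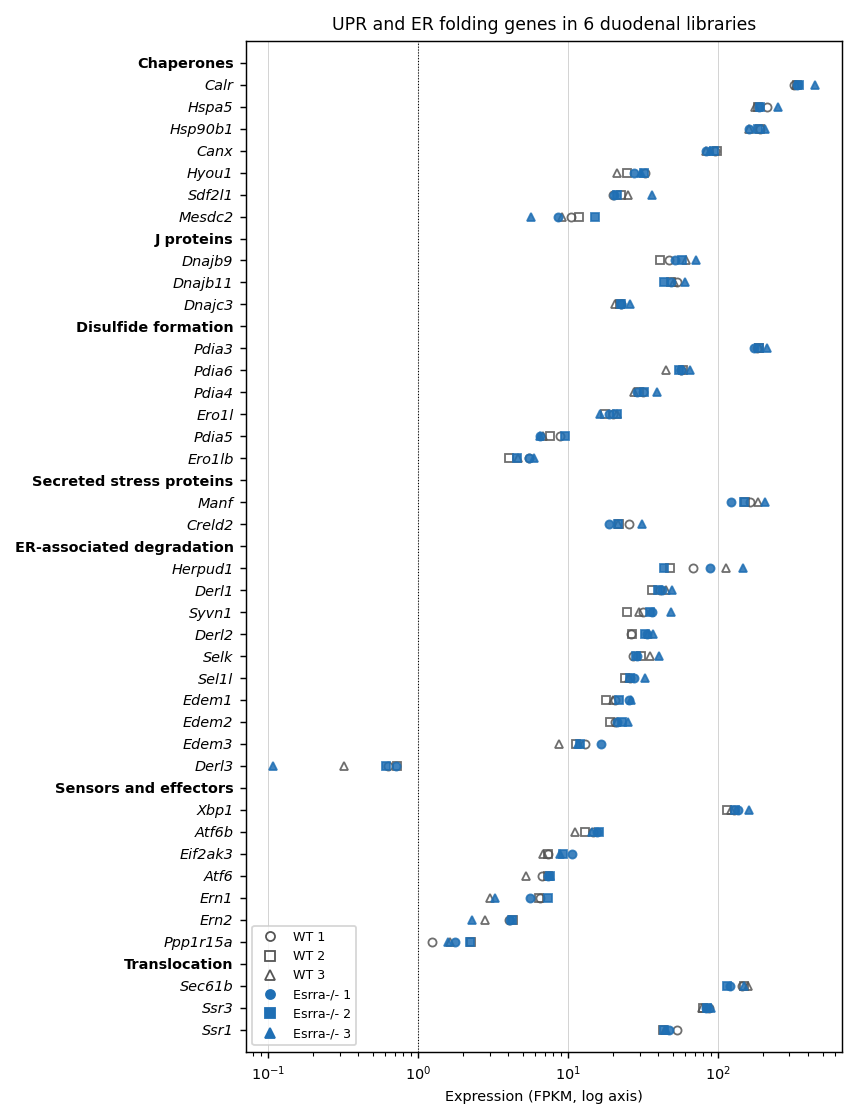
Expression in FPKM (log axis) of all 38 genes in each of the 6 libraries, grouped by role, with open gray symbols for WT and filled blue symbols for Esrra-/- mice. The dotted line marks 1 FPKM, and Derl3 is the only gene to its left in any library.

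ER chaperones included the most abundant transcripts of the group, and the genotypes overlapped for all 7. Calr, encoding the calcium-binding lectin chaperone calreticulin, was the most abundant of all 38, at 321, 337 and 332 FPKM in WT and 336, 347 and 446 FPKM in Esrra-/- mice. The first 5 of those values lay close together and Esrra-/- replicate 3 stood above them. For Calr the log2 fold change was 0.18 (95% interval -0.23 to 0.585, adjusted p of 0.739 by limma).

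Hspa5, encoding BiP, the HSP70 chaperone whose mRNA is the usual readout of the response, measured 212, 186 and 176 FPKM in WT and 188, 192 and 250 FPKM in Esrra-/- mice. The genotypes overlapped, since WT replicate 1 exceeded both mutants other than replicate 3. A log2 fold change of 0.13 (95% interval -0.28 to 0.54, adjusted p of 0.822 by limma) resulted, which moved to -0.01 when Esrra-/- replicate 3 was left out. Hsp90b1, the ER HSP90 known as GRP94, was at 160 to 192 FPKM in WT and 160 to 206 FPKM in mutants, a log2 fold change of 0.02. Some exons of Hsp90b1 overlap other annotated genes, 1 of them antisense.

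The remaining chaperones ranged more widely in level. Canx, the membrane-bound lectin chaperone calnexin, averaged 92.3 ± 8.49 FPKM (SD, n = 3) in WT and 88.3 ± 5.47 FPKM (SD, n = 3) in Esrra-/- mice. Hyou1, a large HSP70 relative that serves as a nucleotide exchange factor for BiP, had a log2 fold change of 0.22. Sdf2l1, a partner of BiP and J proteins, had one of 0.16 and stood at 36.1 FPKM in Esrra-/- replicate 3 against 20.0 to 25.1 FPKM elsewhere. Mesdc2, the folding chaperone of LDL-receptor family proteins, varied from 5.63 to 15.1 FPKM within the mutants alone, and its log2 fold change of -0.22 had a 95% interval from -0.99 to 0.55. In all, 5 of the 7 chaperones were above 0, with a median of 0.13, and without Esrra-/- replicate 3 these became 3 of 7 and -0.01.

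J proteins deliver unfolded clients to BiP and stimulate its ATPase. Dnajb9 (ERdj4), the most abundant of the 3, measured 46.9, 41.1 and 60.8 FPKM in WT and 51.6, 57.3 and 71.2 FPKM in Esrra-/- mice. Replicate 3 was highest within each genotype and the genotypes overlapped. Its log2 fold change was 0.28 (95% interval -0.17 to 0.74, adjusted p of 0.631 by limma). Dnajb11 (ERdj3) and Dnajc3 (p58IPK) had log2 fold changes of -0.02 and 0.11.

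For all 6 enzymes of disulfide bond formation the interval lay within 0.58 of 0. Pdia3 (ERp57), an isomerase that works with calnexin and calreticulin on glycoproteins, was the most abundant, at 182, 189 and 187 FPKM in WT and 175, 187 and 212 FPKM in Esrra-/- mice. Mutant values fell on both sides of the WT range. This left a log2 fold change of 0.03 (95% interval -0.30 to 0.37, adjusted p of 0.949 by limma). The isomerases Pdia4, Pdia6 and Pdia5 had log2 fold changes of 0.17, 0.15 and -0.06, and the oxidases Ero1l and Ero1lb, which recharge the isomerases, -0.07 and 0.18. Their median was 0.09, with 4 of 6 above 0, and 0.04 with 5 of 6 above 0 without Esrra-/- replicate 3. Exons of Pdia3 and Pdia6 overlap antisense genes.

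Manf and Creld2 encode small ER-resident proteins that are secreted under stress. Manf measured 163, 151 and 185 FPKM in WT and 123, 150 and 205 FPKM in Esrra-/- mice, so the mutants held both the lowest and the highest value. Its log2 fold change was -0.09 (95% interval -0.59 to 0.41, adjusted p of 0.902 by limma). Creld2 varied in the same manner, from 18.7 to 31.3 FPKM among the mutants and from 21.6 to 25.4 FPKM among WT mice.

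Among the ERAD genes, 9 of 9 tested had a log2 fold change above 0, with a median of 0.19. Without Esrra-/- replicate 3, which was highest for 8 of them, 7 of 9 were above 0 and the median was 0.12. Syvn1 encodes HRD1, the ubiquitin ligase at the center of the pathway. It measured 31.5, 24.9 and 29.6 FPKM in WT and 36.3, 35.5 and 48.6 FPKM in Esrra-/- mice. The genotypes did not overlap and Esrra-/- replicate 3 was well above the rest. The log2 fold change, the largest among the 37, was 0.47 (SE 0.17, 95% interval 0.08 to 0.87), with an adjusted p of 0.393 by limma. It was 0.33 without Esrra-/- replicate 3 and 0.38 without WT replicate 2, and in both cases the unadjusted p no longer passed 0.05. Exons of Syvn1 overlap those of the antisense gene Mrpl49, whose own log2 fold change was -0.24.

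Edem1 encodes a lectin that extracts mannose-trimmed misfolded glycoproteins from the folding cycle. Its values were 20.7, 18.0 and 20.0 FPKM in WT and 25.5, 21.8 and 26.3 FPKM in Esrra-/- mice. The lowest mutant lay just above the highest WT mouse. Edem1 had a log2 fold change of 0.32 (SE 0.13, 95% interval 0.02 to 0.62), with an adjusted p of 0.439 by limma. Its unadjusted p was no longer under 0.05 when any mouse other than Esrra-/- replicate 2 was left out, or when the fit used no trend of variance on expression.

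Edem2, a related mannosidase, measured 20.6, 19.2 and 21.2 FPKM in WT and 21.3, 22.8 and 25.2 FPKM in Esrra-/- mice. Separation here amounted to less than 1 FPKM between WT replicate 3 and Esrra-/- replicate 1. With a log2 fold change of 0.18, it had an adjusted p of 0.618 by limma. Edem3, the third of these proteins, had one of 0.28, with overlapping genotypes.

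Herpud1 encodes a membrane scaffold of the HRD1 complex and had the largest standard error of the log2 fold change among the 37 genes tested (0.47). It measured 68.5, 48.1 and 114 FPKM in WT and 87.9, 43.7 and 146 FPKM in Esrra-/- mice. Replicate 3 was highest and replicate 2 lowest in each genotype, and these numbers mark no shared animal or batch in the labels. For this gene the log2 fold change was 0.19 (95% interval -0.92 to 1.30, adjusted p of 0.908 by limma), and leaving out 1 mouse moved it between -0.22 and 0.65.

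Estimates for the remaining ERAD members lay between 0.06 and 0.25. Sel1l, the HRD1 cofactor, had a log2 fold change of 0.17. The derlins Derl1 and Derl2, which form part of the exit channel, had 0.11 and 0.25, and Selk, a selenoprotein of the same complexes, 0.06. Exons of Derl2 overlap the antisense gene Mis12. Derl3, the derlin of professional secretory cells and an ERSE gene, was at 0.108 to 0.727 FPKM and was not tested.

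**Figure D3:**
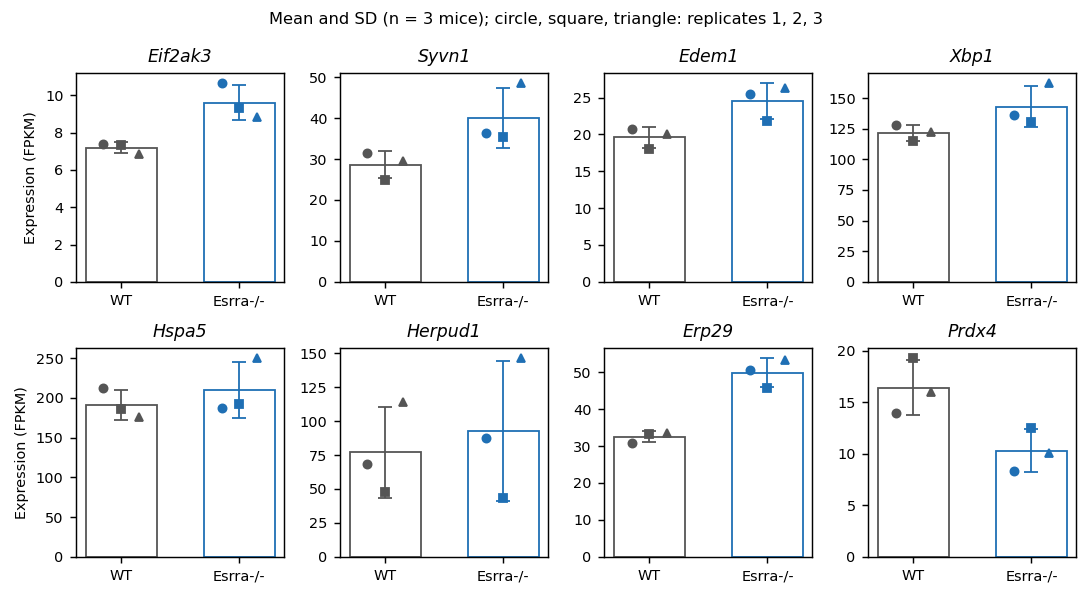
Expression in FPKM of 6 members and 2 other ER genes (Erp29, Prdx4), with bars for the mean, error bars for the SD (n = 3 mice) and symbols for single mice. Eif2ak3, Syvn1, Edem1 and Xbp1 do not overlap between genotypes, whereas Hspa5 and Herpud1 do, and Herpud1 spans 43.7 to 146 FPKM.

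Translocation factors bring nascent chains into the ER. Sec61b, a subunit of the SEC61 channel, was the member with the lowest fold change, at 145, 150 and 158 FPKM in WT and 121, 115 and 150 FPKM in Esrra-/- mice. Esrra-/- replicate 3 lay within the WT range and the other mutants below it. Sec61b had a log2 fold change of -0.24 (95% interval -0.61 to 0.12, adjusted p of 0.605 by limma). Ssr1 and Ssr3, subunits of the translocon-associated TRAP complex, had -0.05 and 0.07.

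Many of the highest values came from a single mouse. Esrra-/- replicate 3 gave the highest of the 6 values for 23 of 37 genes (62.2%), while it did so for 26.5% of all genes tested. They included 8 of 9 ERAD genes, all 3 J proteins and 4 of 7 chaperones, but among the sensors only Xbp1. WT replicate 3 gave the lowest value for 13 members. The median deviation of the 37 genes from their own means was 0.22 in Esrra-/- replicate 3 on the log2 scale, and between -0.10 and 0.02 in the other 5 libraries. Without that mouse, 25 of 37 log2 fold changes were above 0 (50.8% of all genes), with a median of 0.05. Of the 28 above 0 with all mice, 21 stayed above 0 and 7 (Hspa5, Hsp90b1, Sdf2l1, Pdia3, Creld2, Herpud1 and Selk) went below it, while Mesdc2, Pdia5, Ero1l and Ern2 crossed the other way. In that fit an unadjusted p under 0.05 was reached on the higher side by Eif2ak3 (3.24% of all genes) and on the lower side by Sec61b (5.26% of all genes).

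**Figure D4:**
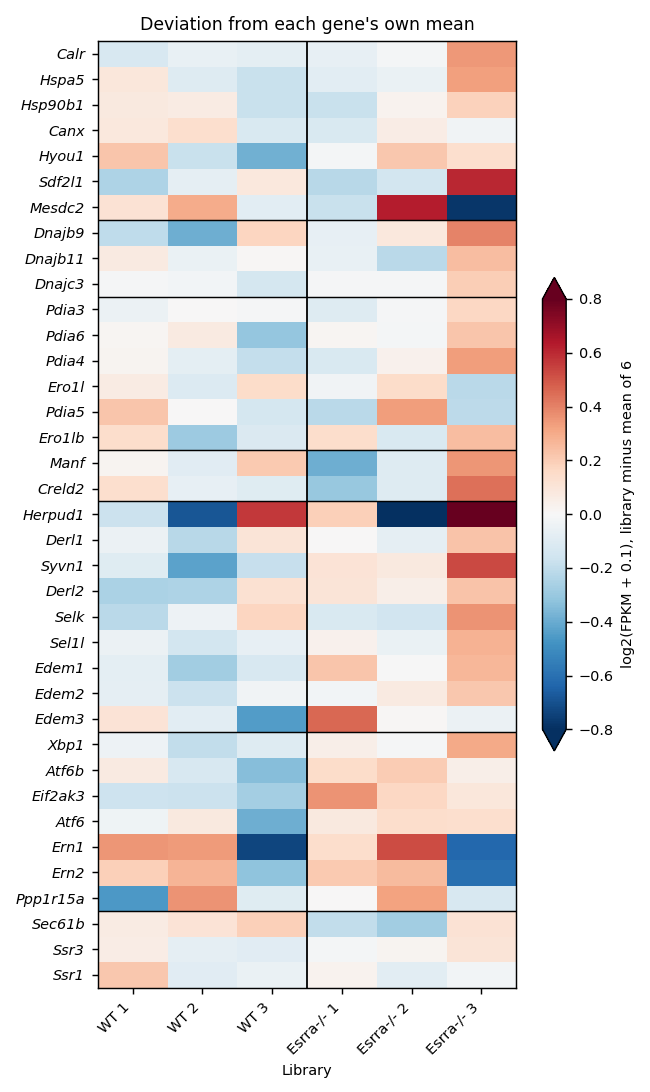
Deviation of each tested gene from its own mean over the 6 libraries, on the log2(FPKM + 0.1) scale (red above, blue below, colors end at 0.8), with horizontal lines between roles and a vertical line between genotypes. Red dominates the column of Esrra-/- replicate 3, where 23 of the 37 genes have their highest value.

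The same mouse stood apart in its cell type markers. Of 8 Paneth cell markers, 6 were called lower in the mutants (75.0%, against 3.28% of all genes). All 8 had a log2 fold change below 0 (median -1.49, adjusted p of 0.359 to 0.528 by limma). Esrra-/- replicate 3 held the lowest of the 6 median deviations of these markers. Summed, they ranged from 13073 to 26903 FPKM in WT and from 2588 to 11282 FPKM in mutants, with Defa24 the most abundant. Crypt markers were also below 0 for 7 of 7 genes (median -0.84). Summed, these were at 142 to 263 FPKM in WT and 55.3 to 188 FPKM in mutants, with Olfm4 the most abundant. Of the 7, Smoc2 and Cdca7 were called lower (28.6%) without overlap, with adjusted p of 0.247 and 0.326 by limma. Villus enterocyte markers were above 0 for 8 of 8 (median 0.21), with 0 called. Medians and calls of markers are given with all mice only. Goblet cell markers went both ways, with a median of -0.05 and 4 of 9 above 0. Of them Spink4 was called lower (-0.78, adjusted p of 0.410 by limma), 11.1% of the list against 3.28% of all genes. Agr2, Spink4 and Tpsg1 lay wholly below WT (33.3%, against 9.14% of all genes). Clca3 and Zg16 lay wholly above (22.2%, against 8.45% of all genes). Markers of plasma and B cells, which also fold much secreted protein, summed to 2.95 to 16.7 FPKM, and mesenchyme markers to 2.54 to 7.28 FPKM. T cell and macrophage markers summed to 98.9 to 241 FPKM, with 0 of 9 called. The sum was highest in Esrra-/- replicate 3, where Gzma, the most abundant, gave 160 FPKM of it. By median deviation, Esrra-/- replicate 2 (0.45) and WT replicate 2 (0.44) stood above that mouse (0.31). The part of these shifts in the values of the ER genes was not tested, and in bulk tissue fewer cells of a type and less RNA per cell cannot be told apart.

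**Figure D5:**
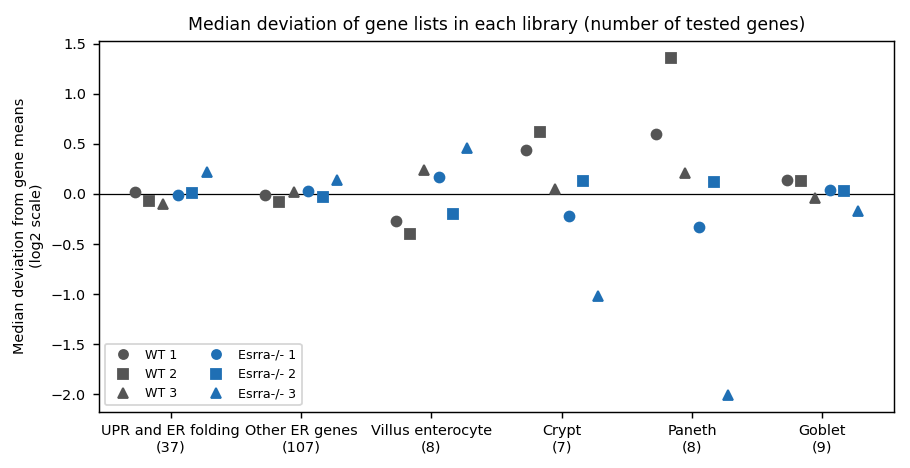
Median deviation of gene lists from their own gene means (log2 scale) in each library, gray for WT and blue for Esrra-/- mice, with the number of tested genes per list. In Esrra-/- replicate 3 the ER genes lie at 0.22 and crypt markers at -1.02, and Paneth markers lie lowest of all.

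Replicates 3 of both genotypes, the mice without Y-linked transcripts, were jointly above the other 4 mice for 8 of the 37 genes (21.6%, against 18.9% of all genes). These were Sdf2l1, Dnajb9, Manf, Herpud1, Derl1, Derl2, Selk and Sec61b. Outside the group, 3 of 15 genes in the list of the PERK branch and stress transcription factors had the same arrangement. This share (20.0%) was near that of all genes. The 3 were Creb3l3, Ddit3 and Trib3, whereas Atf4 and Atf3 of the same list lacked the arrangement. Ddit3 measured 28.5 and 27.1 FPKM in these mice and 11.8 to 16.1 FPKM in the others. In that list 2 genes, Mbtps1 and Mbtps2, had the opposite arrangement (13.3%, against 13.2% of all genes). Other features shared by these libraries, the worth of a single read among them, cannot be told apart from the lack of Y-linked transcripts.

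Estimates are given for members with and without an ERSE, and the difference between them was not tested. The 9 tested ERSE genes had a median log2 fold change of 0.13, with 8 above 0, and the 23 without the element 0.16, with 17 above 0. The 23 held the ERSE-II genes Herpud1 and Dnajb11. They also held Derl2, Herpud1, Pdia3, Pdia4 and Selk, which match the ERSE when its last base is dropped. That looser search found 15 of 33 promoters (45.5%, against 0.429% of all genes), so the split depends on the strict form. Esrra-/- replicate 3 was highest for 8 of the 9 and for 13 of the 23. The median of the mean FPKM was 56.3 for ERSE genes and 26.9 for the rest.

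Other genes of the same pathway were examined as a wider list of 112, of which 107 were tested. Their median log2 fold change was 0.10 and 68 of 107 (63.6%) were above 0. Esrra-/- replicate 3 was highest for 44 of them (41.1%, against 26.5% of all genes), and without it the median was 0.05, with 63 above 0. By the study's thresholds 1 was called higher and 1 lower (0.935% each, against the 1.35% and 3.28% of all genes). Erp29, a folding factor related to the disulfide isomerases, was called higher, at 30.9, 33.2 and 33.6 FPKM in WT and 50.7, 45.7 and 53.4 FPKM in Esrra-/- mice. The genotypes did not overlap, with a log2 fold change of 0.61 (SE 0.12), an unadjusted p under 0.05 and an adjusted p of 0.213 by limma. That value is close to the limit of 0.58, and the call was lost without WT replicate 1 (0.575), without Esrra-/- replicate 3 (0.562) and under quantile scaling (0.557). Exons of Erp29 overlap those of the antisense genes Naa25 and Tmem116, so without strand its reads could be shared.

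Prdx4, the ER peroxiredoxin that turns hydrogen peroxide into disulfide bonds, was called lower. It measured 13.9, 19.3 and 16.0 FPKM in WT and 8.32, 12.5 and 10.1 FPKM in Esrra-/- mice, without overlap. On the log2 scale the fold change was -0.67 (SE 0.19), with an unadjusted p under 0.05 and an adjusted p of 0.326 by limma, and the call was lost without WT replicate 2 (-0.55) or Esrra-/- replicate 1 (-0.53). Ganab, the catalytic subunit of glucosidase II in the calnexin cycle, had a log2 fold change of 0.37 and an adjusted p of 0.387 by limma, from 62.2 to 71.0 FPKM in WT and from 82.5 to 89.2 FPKM in mutants. P4hb, the major protein disulfide isomerase and also a subunit of the lipoprotein-assembling MTP complex, exceeded every member in level at 1480 to 2259 FPKM, with a log2 fold change of 0.24 and overlapping genotypes. Within the wider list, all 11 genes of ER exit and retrieval were above 0 (median 0.20), but without Esrra-/- replicate 3 they were 9 of 11 (median 0.12). Of 19 further ERAD genes, 15 were above 0 (median 0.15), and 14 without that mouse (median 0.10). The 8 glucosidase and lectin genes had 7 above 0 with and without it, with medians of 0.19 and 0.12. For the 15 genes of the PERK branch and stress transcription factors, 12 were above 0 (median 0.20), and 11 without it (median 0.17). Of 23 further folding and oxidoreductase genes, the list that holds both Erp29 and Prdx4, 8 were above 0 (34.8%, median -0.04), and 9 without it (median -0.11). Medians of the 20 translocon and signal peptidase genes (-0.03) and the 11 oligosaccharyltransferase genes (0.00224) changed sign without it, to 0.01 and -0.07.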

How the data were processed

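Duodenal epithelial RNA from 3 WT and 3 Esrra-/- mice was sequenced paired-end from an Illumina TruSeq v2 library, which does not mark strand. Per the labels and the study's methods, the authors checked reads with FastQC 0.11.3, quantified them with kallisto (given as 2.1.0) against mm9 and calculated FPKM with DESeq2 (given as 2.2.1), the deposited FPKM being the only values used. A deposited table of the authors' own comparison (fold changes and p-values) was not used. Depth is unknown, and the relative steps described give only the worth of a single read.

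Genes with a mean above 1 FPKM were fitted as log2(FPKM + 0.1) with limma 3.58.1 (R 4.3.3, empirical Bayes with a variance trend), Esrra-/- minus WT, with two-sided tests and Benjamini-Hochberg adjustment over 10596 genes. A gene was called when its unadjusted p was under 0.05 and its fold change exceeded 0.58 on the log2 scale. An exact permutation test of 3 against 3 cannot go below 0.1, so none was used for single genes. The procedure was tested on simulated data. The members, gene lists and tests were chosen with earlier results of these data known. Values in every library were given for members with p under 0.05, members without overlap and the most abundant member of each role, and further members were added after their values were seen (Hspa5, Ern1 and Ern2). No 2 libraries were duplicates. Gene overlaps were read from GENCODE M1 (NCBIM37, mm9), and motifs from RefSeq promoters with Python 3.11.15. No promoter was given for Hyou1, Manf, Derl1, Ern2 and Atf6. Alternatives were another pseudocount, other filters, quantile and median-ratio scaling, no variance trend, a replicate block, a Y-linked covariate and each mouse left out.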

Additional observations from a re-analysis of the deposited data

How the results depend on the processing

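No change under 0.58 on the log2 scale could be called in any gene, and where intervals were wide, as for Herpud1 (-0.92 to 1.30), larger ones could be missed too. Members called higher stayed at 0 in all 14 alternative fits. With the fold limit dropped they were 3, and 1 to 7 across those fits. Members called lower stayed between 0 and 1 when each mouse was left out, the 1 being Mesdc2 (-0.59 without Esrra-/- replicate 2). The median log2 fold change of the members ran from 0.05 to 0.17. Other ER genes called lower were 2 with the replicate block, 0 at an adjusted p under 0.05, and 0 to 3 with each mouse left out. Those called higher were 0 under quantile scaling, 0 at an adjusted p under 0.05, 2 with no fold limit, and 0 to 2 with each mouse left out. Erp29 lost its call under quantile scaling (0.56) and without WT replicate 1 (0.575) or Esrra-/- replicate 3 (0.562), and Prdx4 without WT replicate 2 (-0.55) or Esrra-/- replicate 1 (-0.53).

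Replicate numbers were not taken to pair the mice, since same-numbered mice correlated at 0.0116, 0.263 and 0.376, the first of them under the limit of 0.1 set for pairing. Esrra-/- replicates 2 and 3 correlated best with their own number, and replicate 1 with WT replicate 2 (0.0276), which is a hint from the data and not from the design. With the replicate block 7 members had an unadjusted p under 0.05 on the higher side, where 10.3% of all genes did, and still 0 were called. With the Y-linked covariate they were 6 (8.43% of all genes).

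Signs turned in 16 genes with 1 mouse left out, and in 1 under another setting, Creld2 with quantile scaling (-0.0417). The lowest and highest values with a mouse left out were -0.20 and 0.18 for Creld2, -0.15 and 0.0876 for Dnajb11, -0.33 and 0.35 for Ern1, -0.28 and 0.18 for Ern2, and -0.16 and 0.0259 for Ero1l. They were -0.22 and 0.65 for Herpud1, -0.0653 and 0.12 for Hsp90b1, -0.00718 and 0.20 for Hspa5, -0.29 and 0.0778 for Manf, and -0.59 and 0.11 for Mesdc2. For Pdia3 they were -0.0421 and 0.0951, for Pdia5 -0.24 and 0.0399, for Ppp1r15a -0.0639 and 0.35, for Sdf2l1 -0.11 and 0.31, for Selk -0.11 and 0.16, and for Ssr1 -0.11 and 0.0477. The cause was not tested.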
